A study of Homo sapiens with 4 samples.

Results

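Of the genes described here, PAF1, CTR9, LEO1, CDC73 and RTF1 encode subunits of the PAF1 complex. SUPT6H, IWS1, SETD2, CDK12 and CDK13 encode factors that act with it on elongating RNA polymerase II. All these genes were taken by symbol, as 10 rows of a deposited table of 60048 human genes. All 10 passed the filter on low values that left 39464 genes for testing. The assay was EU-seq, in which RNA made while cells take up the uridine analogue 5-ethynyl uridine (EU) is captured and sequenced. All 4 libraries came from HCT116, a human colorectal carcinoma line, of the genotype RAD21-mAC, in which the cohesin subunit RAD21 carries a degron that auxin activates. The control group received DMSO and held 2 libraries; the auxin group, also of 2 libraries, was treated for 3 h with 0.5 mM of the auxin indole-3-acetic acid, given to deplete RAD21. Both groups carried the tag, and both took up EU at 0.5 mM over 20 min. The labels do not say whether the replicates were separate cultures, so p-values measure only the spread between these libraries. The series title asks how cohesin bears on pause release and processive elongation, and the genes of the elongation machinery are read here as transcripts; their proteins were not measured.

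The PAF1 complex travels with RNA polymerase II through the gene body, is needed for ubiquitination of histone H2B, and binds the elongating enzyme beside SPT6, the histone chaperone encoded by SUPT6H. IWS1 binds SPT6 and helps recruit SETD2, which places the H3K36 trimethyl mark on histones behind the polymerase. CDK12 and CDK13 are paralogous kinases that pair with cyclin K and phosphorylate the polymerase's C-terminal domain, and loss of CDK12 is known to reduce full-length transcription of long DNA repair genes.

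The values are a signal summed over the whole gene span, introns included, that the authors had multiplied by 1 unexplained factor per library, so the depth in reads is unknown. Totals ranged from 61135244 to 93113007 and were brought to a common scale by trimmed means of M-values (scaling factors 0.818 to 1.21), which gives the scaled signal printed below and removes any change in total nascent RNA. RAD21 itself had a scaled signal of 5174 and 7200.5 in control and 5879 and 6245 in auxin (limma adjusted p = 0.996), which does not check the depletion, because the degron acts on the protein. All 7 markers of colorectal epithelium were above 0 in every library, with a summed signal per kb of 4921 and 5579 in control and 4268 and 4495 in auxin. Being above 0 does not set epithelium apart. All 4 leukocyte markers, all 3 endothelial markers and 3 of 4 fibroblast markers were above 0 in every library too. The mean per kb of single epithelial markers ran from 7.61 to 2064, and the highest fibroblast marker had 45.6. Summed markers of fibroblasts (34.5 and 43.0 in control, 51.7 and 58.4 in auxin), leukocytes (8.87 to 9.65 over all libraries) and endothelium (5.95 and 6.97 in control, 7.26 and 9.22 in auxin) were far lower, and their part in the results was not tested. In such bulk libraries, fewer cells of a type and less RNA per cell cannot be told apart. The table does not separate strands: 694 lncRNA genes nested in an expressed gene of the opposite strand had a median of 1.02 times the host's signal per kb, against 0.990 for 240 nested on the same strand.

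None of the 10 genes passed the threshold in auxin against control (limma adjusted p from 0.660 to 0.996, threshold 0.05), and none had an unadjusted p under 0.05. Over all genes tested, 0.737% passed the threshold (291 genes, 130 higher and 161 lower) and 10.3% had an unadjusted p under 0.05. The log2 fold changes of the 10 genes, auxin minus control, lay between -0.27 (CTR9) and 0.09 (SUPT6H), 6 above and 4 below 0, with a median of 0.02 against 0.0013 over all genes tested. Their median size regardless of sign was 0.07, against 0.20 over all genes tested and 0.16 over 8479 strongly transcribed genes (protein-coding, mean scaled signal 2000 or more, a level chosen after the values were seen), of which 1.85% passed the threshold. The 10 genes differed between the control libraries by a median of 0.16 and between the auxin libraries by 0.09. Their median difference between groups was smaller, but it compares means of 2 libraries, which vary less than single libraries. Only RTF1 (-0.19, against replicate differences of -0.15 in control and 0.12 in auxin) and SETD2 (-0.18, against -0.10 and 0.08) changed by more than both their replicate differences. The 95% interval of the change stayed within 1.5-fold in either direction for 9 genes and within 2-fold for all 10; CTR9 was the exception at 1.5-fold, with a lower bound of -0.62.

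**Figure D1:**
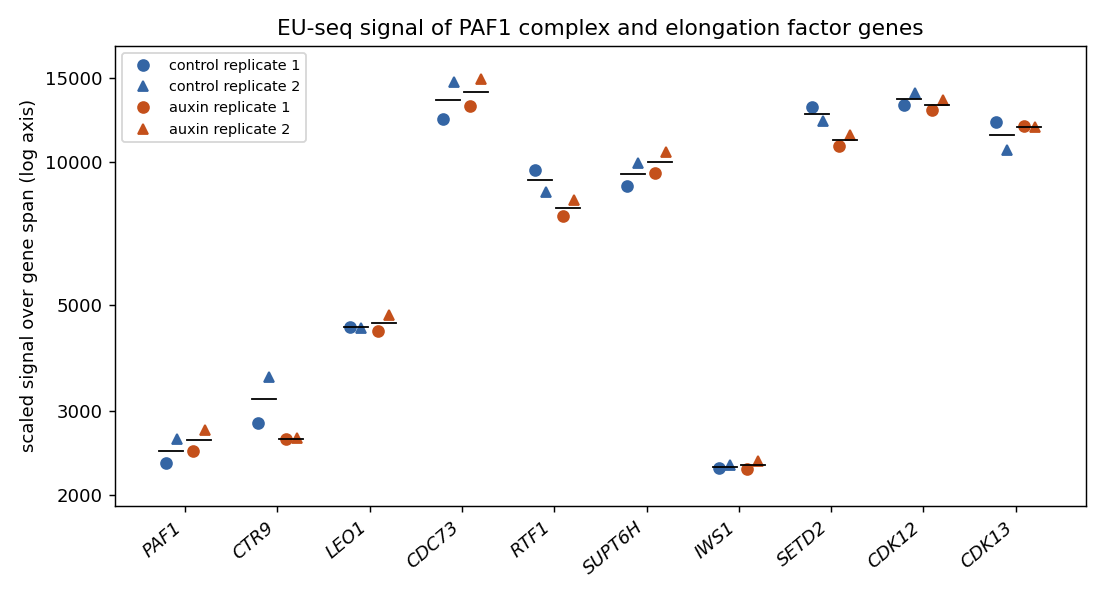
Scaled EU-seq signal over the gene span (log axis) of the 10 genes in each library; circles are replicate 1, triangles replicate 2, blue control, orange auxin, and black lines the group means (n = 2 each). The groups overlap for 7 genes, and both auxin libraries lie below both control libraries for CTR9, RTF1 and SETD2. The same held for 20.2% of all genes tested and 32.3% of the strongly transcribed genes.

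The summed scaled signal of the 10 genes was 81114 and 82969 in control and 77545 and 82954 in auxin (means 82042 ± 1312 and 80249 ± 3825, SD, n = 2 each; two-sided exact permutation p = 0.667, where 0.333 is the smallest the design allows). This was between 0.103% and 0.108% of the signal of each library. Auxin replicate 1 was the lowest library and the other 3 lay close together.

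PAF1 and CTR9 form the core on which the complex is built. PAF1 (ENSG00000006712; GRCh38 chromosome 19, 39385629 to 39391106, minus strand) had a scaled signal of 2339 and 2617 in control and 2471 and 2738 in auxin, so the groups overlapped. Its log2 fold change was 0.07 (95% interval -0.27 to 0.41). PAF1 starts head to head with MED29, a Mediator subunit gene on the plus strand, and the 216 bases between their starts (chr19:39391107-39391322) are shown because both genes are transcribed away from them. The sequence is from RefSeq, GRCh38.p14, 5′ to 3′ towards PAF1. It begins beside the MED29 start and ends beside the PAF1 start, and its label names the pair, not the direction. Capitals mark matches on either strand to CCAAT or to the GC box GGGCGG.
PAF1 to MED29: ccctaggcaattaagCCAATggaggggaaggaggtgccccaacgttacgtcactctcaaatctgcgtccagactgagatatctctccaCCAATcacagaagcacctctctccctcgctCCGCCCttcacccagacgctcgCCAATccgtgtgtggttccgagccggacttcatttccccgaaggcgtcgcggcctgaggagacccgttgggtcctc
MED29 had a scaled signal of 3093 and 2838 in control and 2914 and 3265 in auxin, a log2 fold change of 0.06 (95% interval -0.27 to 0.39; limma adjusted p = 0.973). The ratio of PAF1 to MED29, per kb, was 1.28 and 1.56 in control and 1.43 and 1.41 in auxin, and the auxin values lay between the control values (two-sided exact permutation p = 1).

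CTR9, the scaffold subunit, had the largest difference of the 10 genes. CTR9 (ENSG00000198730; chromosome 11, 10751246 to 10779746, plus strand) had a scaled signal of 2838 and 3529 in control and 2620.0 and 2636 in auxin, so both auxin libraries lay below both control libraries, yet the auxin libraries were nearly equal and the control libraries were not. The log2 fold change was -0.27 (SE 0.16, limma adjusted p = 0.660), while the control libraries differed by 0.31 from each other. Without control replicate 2 it was -0.11 and without control replicate 1 it was -0.41, so its size moved with the control library left out.

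RTF1, the subunit whose histone modification domain stimulates ubiquitination of H2B, had the second largest difference. RTF1 (ENSG00000137815; chromosome 15, 41417104 to 41483563, plus strand) had a scaled signal of 9633 and 8659.7 in control and 7682 and 8329 in auxin, lower in both auxin libraries. The log2 fold change was -0.19 (95% interval -0.47 to 0.09; limma adjusted p = 0.717). The nearest control and auxin libraries differed by -0.06 and the farthest by -0.33, and with 1 library left out the fold change lay between -0.27 and -0.10.

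The 250 bases upstream of the RefSeq starts of CTR9 (chr11:10750996-10751245) and RTF1 (chr15:41416845-41417094) are shown. Among the 10 genes, these were the subunits of the complex whose groups did not overlap. WDR61, a further subunit described below, did not overlap either. In each, both auxin libraries lay below both control libraries, as for 20.2% of all genes tested and 32.3% of the strongly transcribed genes. The CTR9 and RTF1 windows are on the plus strand of GRCh38.p14, 5′ to 3′. Capitals mark matches on either strand to the ETS core CCGGAAG or the GC box GGGCGG.
CTR9: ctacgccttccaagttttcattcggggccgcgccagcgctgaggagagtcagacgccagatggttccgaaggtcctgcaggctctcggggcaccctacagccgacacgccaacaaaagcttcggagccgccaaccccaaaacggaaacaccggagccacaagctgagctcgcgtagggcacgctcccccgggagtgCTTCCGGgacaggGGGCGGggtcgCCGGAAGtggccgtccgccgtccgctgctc
RTF1: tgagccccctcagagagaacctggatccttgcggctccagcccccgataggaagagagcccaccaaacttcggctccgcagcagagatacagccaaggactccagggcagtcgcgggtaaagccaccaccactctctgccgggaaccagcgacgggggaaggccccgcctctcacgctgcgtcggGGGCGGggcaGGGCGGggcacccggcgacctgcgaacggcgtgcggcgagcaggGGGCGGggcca
The CTR9 window held 2 ETS cores and 1 GC box, all within 54 bases of the start, and 26 CpG. The RTF1 window held 3 GC boxes, the farthest at 65 bases, and 23 CpG, against a median of 11 CpG over 35116 RefSeq promoters. An ETS core was found in 8.52% of those promoters, a GC box in 42.6% and CCAAT in 32% (both strands, 250 bases). A RefSeq promoter sequence was matched for 9 of the 10 genes. None of these windows held TATAAA, found in 10.7% of all promoters.

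The remaining subunits among the genes described here, LEO1 and CDC73, overlapped between groups. LEO1 (ENSG00000166477; chromosome 15, 51938025 to 51971778, minus strand) had 4507 and 4482 in control and 4416 and 4764 in auxin, the control libraries lying between the auxin libraries (log2 fold change 0.03, 95% interval -0.27 to 0.33). CDC73 (ENSG00000134371; chromosome 1, 193122031 to 193254815, plus strand), which encodes parafibromin, had 12279 and 14708 in control and 13105 and 14918 in auxin. Its replicates differed by 0.26 in control and by 0.19 in auxin on the log2 scale, more than its change of 0.06 (95% interval -0.23 to 0.35). B3GALT2, on the opposite strand inside CDC73, spans 5.94% of it and had a signal of 344 to 416 over the libraries (log2 fold change -0.15, limma adjusted p = 0.921). The short Metazoa_SRP gene, also inside CDC73, had a mean of 53.7 in control and 59.3 in auxin, overlapping groups. Over the 5 subunits PAF1, CTR9, LEO1, CDC73 and RTF1, the summed signal was 31596 and 33996 in control and 30294 and 33384 in auxin (two-sided exact permutation p = 0.667). Of these, 3 of 5 had values above 0 for the change and 2 below.

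The genes of SPT6 and IWS1 gave small differences, but the IWS1 row does not describe the IWS1 gene as RefSeq draws it. SUPT6H (ENSG00000109111; chromosome 17, 28662205 to 28702679, plus strand) had a scaled signal of 8881 and 9933 in control and 9488 and 10510.0 in auxin, overlapping groups with a log2 fold change of 0.09 (95% interval -0.19 to 0.37; limma adjusted p = 0.928), which was 0.01 without auxin replicate 2 and 0.17 without auxin replicate 1. Its start lies 19 bases from that of SDF2, transcribed the other way, which had 2934 and 2657 in control and 3016 and 3256 in auxin (log2 fold change 0.17, limma adjusted p = 0.834). SDF2 was thus higher in both auxin libraries, as were 18% of all genes tested, and did not pass the threshold. The lncRNA gene AC010761.3, on the opposite strand inside SUPT6H, had a signal of 380 to 465 over the libraries and overlapping groups.

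IWS1 (ENSG00000163166; chromosome 2, 127436207 to 127486618, minus strand) had 2276 and 2317 in control and 2268 and 2359 in auxin, the tightest values of the 10 genes (log2 fold change 0.01, 95% interval -0.32 to 0.34). On GRCh38.p14, RefSeq places IWS1 at 127480812 to 127527336, so the row covers 12.5% of the RefSeq gene, and 11.5% of the row lies inside it. The lncRNA gene AC010976.1 (127467726 to 127514623, plus strand) covers 72.7% of RefSeq IWS1 and 37.5% of the IWS1 row, and strands are not separated in the table. AC010976.1 had a scaled signal of 5282 and 5917 in control and 4919 and 5862 in auxin, also overlapping (log2 fold change -0.06, 95% interval -0.38 to 0.26; limma adjusted p = 0.971). Per kb its mean was 117, against 45.7 for the IWS1 row. Neither row changed by an amount larger than its replicate spread, and how the signal of AC010976.1 divides between the strands was not tested.

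SETD2, the main enzyme that trimethylates H3K36 in human cells, had lower values with auxin. SETD2 (ENSG00000181555; chromosome 3, 47016436 to 47164113, minus strand) had a scaled signal of 13059 and 12183 in control and 10814 and 11392 in auxin, with no overlap between the groups. The log2 fold change was -0.18 (SE 0.12, 95% interval -0.44 to 0.07; limma adjusted p = 0.690), against replicate differences of -0.10 in control and 0.08 in auxin. Its divergent lncRNA gene KIF9-AS1, whose start lies 383 bases away, had 2428 and 2056 in control and 2144 and 2138 in auxin, overlapping groups (log2 fold change -0.06). In all, 3 of the 10 genes (CTR9, RTF1 and SETD2) had both auxin libraries below both control libraries, and none had both above. Among all genes tested, 20.2% had both auxin libraries below, and among the strongly transcribed genes it was 32.3%, so 3 of 10 was close to the background.

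The kinase genes CDK12 and CDK13 also overlapped between groups. CDK12 (ENSG00000167258; chromosome 17, 39461486 to 39534544, plus strand; the row covers 68.9% of the RefSeq gene) had a scaled signal of 13163 and 13947 in control and 12816 and 13466 in auxin. Its log2 fold change was -0.04 (SE 0.11, 95% interval -0.29 to 0.20), the narrowest interval of the 10. CDK13 (ENSG00000065883; chromosome 7, 39950256 to 40099580, plus strand) had 12140 and 10593 in control and 11866 and 11843 in auxin, the auxin libraries lying between the control libraries (log2 fold change 0.06, 95% interval -0.20 to 0.33). The lncRNA gene AC072061.1, whose start lies 500 bases from that of CDK13 on the other strand, had 220 and 273 in control and 245 and 243 in auxin, overlapping likewise. Per kb, CDK12 carried 2.22 and 2.69 times the signal of CDK13 in control and 2.21 and 2.32 times in auxin, a ratio that did not differ beyond the control spread (two-sided exact permutation p = 0.667). CCNK, the gene of cyclin K, had a log2 fold change of 0.10 (95% interval -0.19 to 0.40; limma adjusted p = 0.911).

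**Figure D2:**
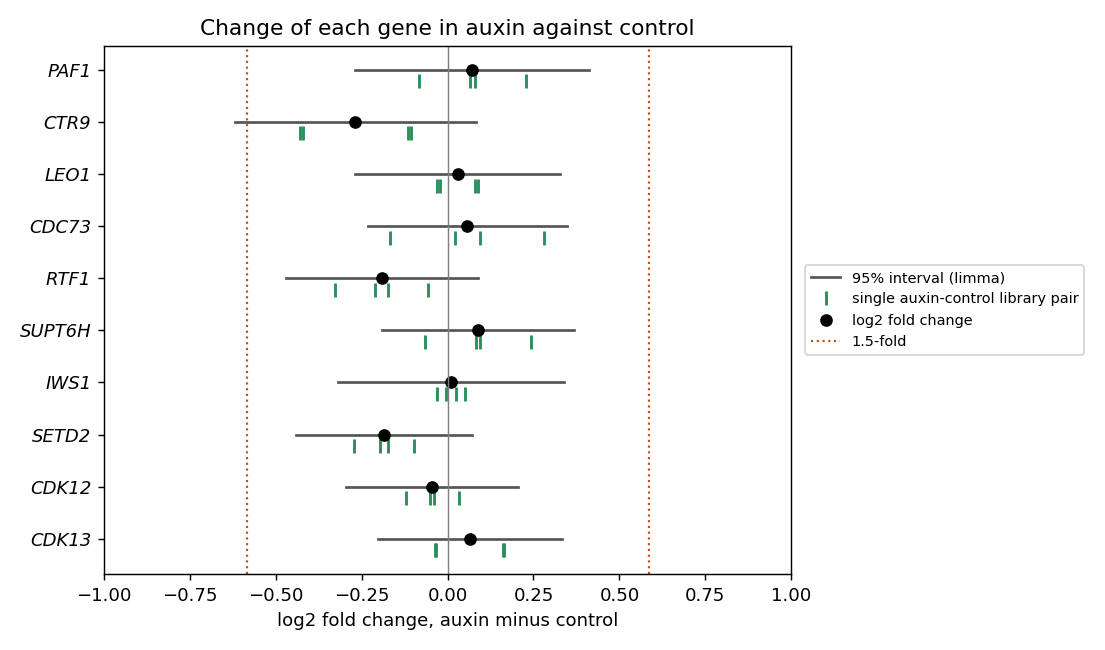
Log2 fold change of each gene, auxin minus control (black points), with its 95% interval from limma (grey lines), the 4 single auxin-control library pairs (green ticks) and 1.5-fold marked by dotted lines. All 10 intervals include 0, and only that of CTR9, from -0.62 to 0.08, crosses a 1.5-fold line.

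Levels between genes were compared per kb of gene span. PAF1 was highest, at 464 (427 to 500 over the 4 libraries, at percentile 93.0 of the protein-coding genes tested), followed by SUPT6H at 240 (219 to 260) and CDK12 at 183 (175 to 191), and the ranges of these 3 did not meet. LEO1 (135) and RTF1 (129) came next with overlapping ranges, then CDC73 (104) and CTR9 (102), and then SETD2 (80.3) and CDK13 (77.8), each pair overlapping within itself. The IWS1 row was last at 45.7 (45.0 to 46.8), at percentile 43.7. Without division by length CDC73 ranked first and PAF1 ninth, PAF1 spanning 5478 bases and CDC73 132785, while the IWS1 row was last in both orders.

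**Figure D3:**
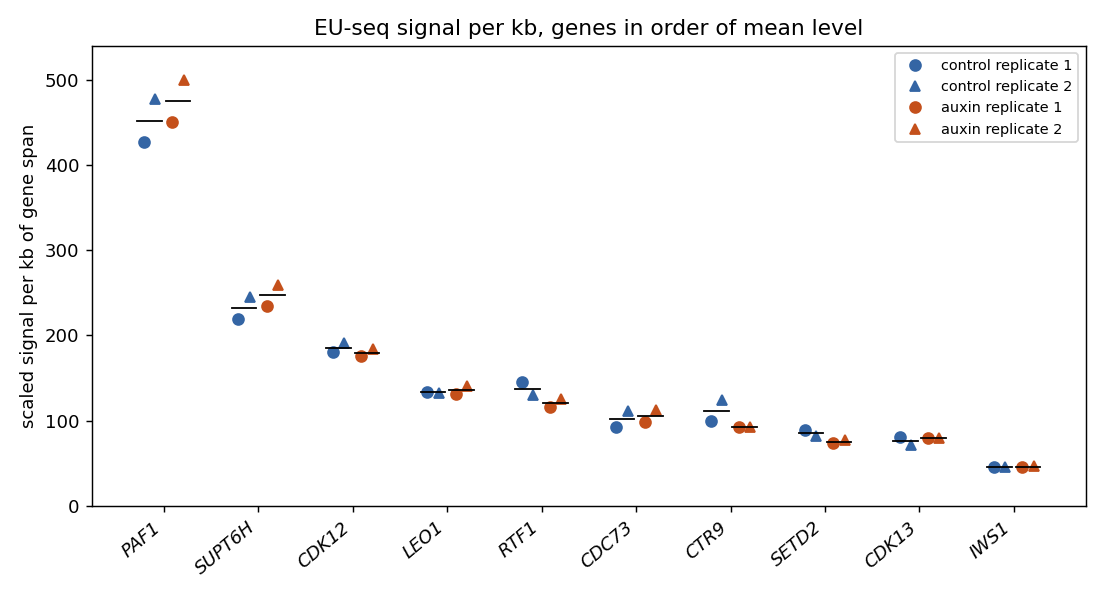
Scaled signal per kb of gene span in each library, genes ordered by their mean (symbols as in the plot of signal by library; black lines are group means, n = 2 each; the axis starts at 0). PAF1 lies between 427 and 500, apart from the other 9 genes, and within each gene the 4 libraries lie close together.

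Within the complex, PAF1 carried 4.29 and 3.86 times the signal of CTR9 per kb in control and 4.91 and 5.40 times in auxin, while CTR9 carried 1.08 and 1.12 times that of CDC73 in control and 0.931 and 0.823 times in auxin. Both ratios were apart between groups, in the direction of the lower CTR9 values, and reached the smallest p the design allows (two-sided exact permutation p = 0.333 each), which is not past 0.05. These ratios were chosen after the values were seen.

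Other genes of the same pathway were read from lists of 88 genes, of which none passed the threshold (limma), with 16 at an unadjusted p under 0.05 (2 higher and 14 lower). Of the 88, 79 had a mean scaled signal of 2000 or more. Their share at that p was 18.2% (15.9% lower), close to the 20.4% of the strongly transcribed genes (13.6% lower and 6.81% higher); over all genes 4.6% were higher and 5.71% lower. Their median log2 fold change was -0.11, against -0.04 over the strongly transcribed genes, and 61 of 88 (69.3%) had values below 0, against 57.9% of the strongly transcribed genes and 49.8% of all. Without auxin replicate 2, 2 passed: FANCA (limma adjusted p = 0.0365) and CHEK1 (0.0499).

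The elongation factor TFIIS, which restarts backtracked polymerase, is encoded by TCEA1, TCEA2 and TCEA3. TCEA1, its general form, had a scaled signal of 5378 and 6036 in control and 4587 and 4883 in auxin, lower in both auxin libraries (log2 fold change -0.27, SE 0.13, limma adjusted p = 0.559). TCEA3 had 842 and 605 in control and 829 and 959 in auxin and TCEA2 had 1013 and 876 in control and 1150.2 and 825 in auxin, overlapping in both cases.

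WDR61 (current symbol SKIC8), the subunit that human PAF1 complex shares with the SKI complex, had a scaled signal of 3385 and 3245 in control and 3054 and 2499 in auxin (log2 fold change -0.26, 95% interval -0.61 to 0.08; limma adjusted p = 0.662), and it was -0.40 without auxin replicate 1 and -0.12 without auxin replicate 2. In both auxin libraries it lay below both control libraries, like CTR9, RTF1 and 32.3% of the strongly transcribed genes (20.2% of all genes tested). WDR61 did not pass the threshold. SUPT4H1, a subunit of the SPT4-SPT5 factor DSIF, had the smallest p of the partner list (log2 fold change -0.40, limma adjusted p = 0.328). CHD1, a remodeller that binds H3K4 trimethylation and travels with the polymerase, had 9131 and 11857 in control and 7456 and 7424 in auxin (log2 fold change -0.48, limma adjusted p = 0.212).

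KDM4A, a demethylase of H3K36 and H3K9, ran the other way, at 5802 and 4622 in control and 6956 and 7232 in auxin (log2 fold change 0.45, 95% interval 0.13 to 0.78; limma adjusted p = 0.252). In its list of genes that write, erase or read H3K36 and H3K79 methylation, 3 of 10 had an unadjusted p under 0.05, 1 higher and 2 lower. Of the 12 polymerase subunit genes 2 did, both lower, with POLR2B at the smallest p (log2 fold change -0.28, limma adjusted p = 0.465). None of 15 genes of kinases, cyclins and phosphatases of the C-terminal domain and none of 10 termination and 3′ end factors did; the smallest p in each belonged to RPRD2 (log2 fold change -0.24, limma adjusted p = 0.579) and to the termination exonuclease XRN2 (-0.27, limma adjusted p = 0.518).

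The list furthest from 0 was that of DNA repair genes whose full-length transcription is known to depend on CDK12. Of its 13 genes, 8 had an unadjusted p under 0.05 (7 lower and 1 higher), against 10.3% of all genes and 20.4% of the strongly transcribed genes, and the median log2 fold change was -0.42. None passed the adjusted threshold. FANCA, a Fanconi anaemia core complex gene, had a scaled signal of 21533 and 22059 in control and 14578 and 16009.6 in auxin, with a clear gap between the groups (log2 fold change -0.51, SE 0.11, limma adjusted p = 0.0757). RAD51D was the higher one, with a log2 fold change of 0.40 (limma adjusted p = 0.293). CDK12 itself had a log2 fold change of -0.04 and CDK13 of 0.06, and the difference between CDK12 and the list was not tested. These are transcript values, and kinase protein and activity were not measured. Whether the values of the list relate to CDK12 was not tested.

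**Figure D4:**
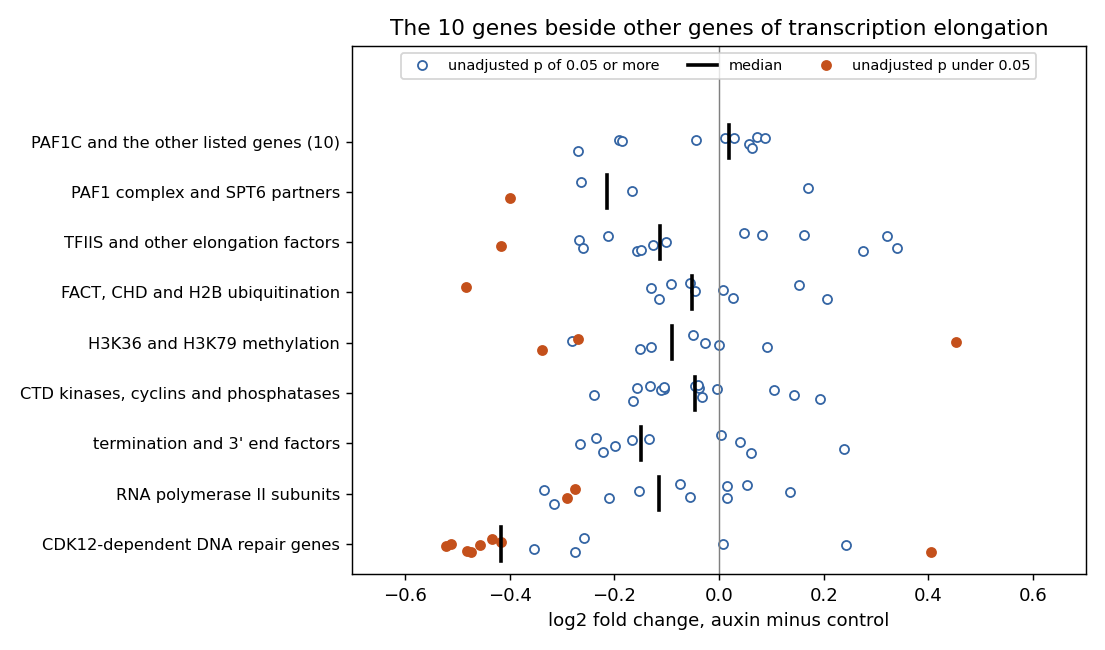
Log2 fold changes, auxin minus control, of the 10 genes and of 8 lists of other elongation genes (points; filled orange where the unadjusted limma p was under 0.05; black bars are medians; vertical jitter only separates points). The 10 genes have no filled point and a median of 0.02, and the DNA repair list has 8 filled points of 13 and a median of -0.42.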

How the data were processed

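Per the labels' protocols, rRNA-depleted human RNA was mixed with fly mRNA before capture and a strand-specific kit was used; the submitters' processing notes name Trimmomatic 0.39, Bowtie2 2.4.5 and deepTools 3.5.1 with the builds hg38 and dm6, and the counting and scaling are not given in the sources used here. The authors deposited 1 table of signal per gene and library with coordinates. One control column with a misspelt name was assigned to control replicate 2 by its number. In each column the low values rose in even steps (100% of those up to 20 steps, within 0.05 of a step), but genes spanning at least 10 kb held 1 step in 2 to 8 cases and 2 steps in 141 to 221, so steps were not taken as reads and no count model was used. Starts in the table count from 0 and are printed 1 higher; of 37905 symbols matched to RefSeq GRCh38.p14, 99.6% overlapped that gene.

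A gene was tested where 2 or more libraries reached the equivalent of 10 and its total reached 15. Trimmed means of M-values (30% and 5% trimmed, unweighted) gave the scaling, and log2(value + 1) was fitted with limma 3.58.1 in R 4.3.3 (lmFit, eBayes with intensity trend, no further term), with Benjamini-Hochberg adjustment over all 39464 genes at 0.05. A fold change on this scale understates the change of low genes. The procedure was tested on simulated data. Figures were drawn with Python 3.11.15 and matplotlib 3.10.9.

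Named genes were the 10 genes, TCEA1, TCEA2, TCEA3, WDR61, CCNK, the gene of smallest p in each list where none passed, and tested genes overlapping a named row with a mean of at least 50; genes starting head to head within 1000 bases, CHEK1 and RAD51D were added after the values were seen. One gene that this rule names is not reported here. The 10 genes, the lists and the tests were chosen with earlier results of these data known. Alternatives were other scalings, filters and pseudocounts, the replicate number as a block, no intensity trend, and leaving out each library.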

Additional observations from a re-analysis of the deposited data

How the results depend on the processing

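The count of 0 among the 10 genes was the same under every alternative run, and their median log2 fold change stayed between -0.03 and 0.06. The count over all genes, 291, was 55 on the deposited scale, 82 at an adjusted p under 0.01 (fewer by construction), 0 without the intensity trend (limma; 3208 genes at an unadjusted p under 0.05) and 147 to 679 with 1 library left out; under the other scalings, filters and pseudocounts it stayed within 1.5 times. The cause of these shifts was not tested. With the replicate block, 4316 of the 39464 genes tested were called, among them all 291. None of the 10 genes was called there (CTR9 was nearest, limma adjusted p = 0.122). Of the 88 companion genes, 19 were called (4 higher, 15 lower), 9 of them among the 13 DNA repair genes (FANCA, limma adjusted p = 4.5e-06). The share called among the strongly transcribed genes was not counted with the block. The prior of limma had infinite degrees of freedom there, so no gene had a spread of its own. Nothing in the labels ties equal replicate numbers to a shared day or culture, and the fit stands as an alternative only. The replicate differences of control and auxin correlated across genes, which are not independent replicates, at Pearson's r 0.231, and at 0.462 over genes with a mean of at least 50, a class that holds all 10 genes. With 1 library left out, 0 to 2 companion genes were called.

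Of 442 values of the 34 genes that the naming rule or the later additions cover, with RAD21, under alternatives, 402 kept their direction and their side of the threshold, 9 newly passed it (7 with the replicate block, and FANCA and CHEK1 without auxin replicate 2) and 31 turned sign, all of genes that passed under no alternative. Outside single libraries, the values that turned were IWS1 on the deposited scale (-0.0014) and AC072061.1 under median-ratio scaling (0.0074), library size only (0.038) and no filter (0.0070) and RAD21 (-0.01 in the report's fit) under the same 3 (0.0015, 0.032 and 0.0010). With 1 library left out, the log2 fold change ranged from -0.0017 to 0.16 for PAF1, -0.026 to 0.096 for LEO1, -0.057 to 0.19 for CDC73, -0.018 to 0.051 for IWS1, -0.080 to 0.0032 for CDK12, -0.034 to 0.18 for CDK13, -0.18 to 0.29 for TCEA2, -0.012 to 0.23 for CCNK, -0.28 to 0.50 for Metazoa_SRP, -0.11 to 0.20 for AC010761.3, -0.18 to 0.081 for AC010976.1, -0.024 to 0.15 for MED29, -0.18 to 0.074 for KIF9-AS1, -0.23 to 0.23 for RAD21 and -0.14 to 0.15 for AC072061.1. Read depth is unknown, and 2 libraries per group limit every interval.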
